A study of Mus musculus with 6 samples.

Results

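The 7 genes described here encode the CB1 cannabinoid receptor (Cnr1) and 6 enzymes that make or break down its lipid ligands (Dagla, Daglb, Napepld, Mgll, Abhd6 and Faah). They were found by symbol among the 23282 rows of each deposited count table, 1 row per gene. All 7 passed the filter on low counts, as did 12831 rows in all. The samples were hippocampi of C57BL/6 mice at 16 weeks of age, 3 libraries labelled PHF2 t/g and 3 labelled WT (wild type), and the question put by the design is which transcripts of the hippocampus differ by genotype. PHF2 is a demethylase of histone H3 lysine 9 whose PHD finger binds methylated H3 lysine 4 at promoters; t/g is taken to mean a Phf2 transgene, and the sources used here do not give its promoter or target cells. Titles name different samples without saying that each is another animal, so the p-values reflect only the spread between libraries, which may be technical.

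Endocannabinoids are lipids that neurons release on demand and that act backwards across the synapse. In the hippocampus, calcium and Gq-coupled receptors in the postsynaptic cell drive diacylglycerol lipase to make 2-arachidonoylglycerol (2-AG), which binds CB1 on presynaptic terminals and lowers transmitter release. Anandamide, the other main ligand, can be formed by N-acylphosphatidylethanolamine phospholipase D and is hydrolysed by fatty acid amide hydrolase. CB1 is most dense on terminals of cholecystokinin interneurons and is also present on glutamatergic terminals.

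The libraries held 5512171 to 8844718 counts. Levels are CPM, which relate each count to the library total after TMM scaling, a correction for composition. The 3′ end method reads about 1 tag per transcript, so a CPM does not grow with transcript length and levels of different genes can be set side by side, as far as each 3′ end was captured. WT replicate 2 lay apart from the rest in multidimensional scaling (1.08 on axis 1; the other libraries −0.533 to 0.152), and PHF2 t/g replicate 1 held 292 CPM of the choroid plexus transcript Ttr against 1.29 to 4.46 elsewhere. Phf2 itself was read at 37.7 ± 1.92 CPM (SD, n = 3) in WT libraries and 38.7 ± 3.96 CPM in PHF2 t/g libraries. No raised Phf2 level was thus seen in these counts. A transgene without the endogenous 3′ end would give no such tags, and the construct is not given, so these values do not check the labels. Markers of hippocampal excitatory neurons were present in every library except Dsp, which had 0 counts in WT replicate 3. Their summed level was 4465 to 5096 CPM in PHF2 t/g, against 5165 to 5723 CPM in WT. Camk2a made up most of the gap between the sums, at 2669 ± 201 CPM in PHF2 t/g, against 3214 ± 203 CPM in WT. By fold change 8 of the 12 markers were lower in PHF2 t/g and 4 higher. The dentate granule cell markers Dsp and C1ql2 were lowest in replicate 3 of each group (C1ql2 at 1.29 and 1.36 CPM, against 5.33 to 9.80 in the others). So were Prox1, Fibcd1, Neurod6, Pou3f1 and Neurod2 of this list, while Slc17a7, Camk2a, Wfs1, Grik4 and Calb1 were not. Fibcd1 had 7.88 and 13.8 CPM there, against 16.5 to 40.9 in the others. The pattern was thus not particular to dentate markers.

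None of the 7 genes passed the quasi-likelihood test of edgeR for PHF2 t/g against WT, with p adjusted by Benjamini-Hochberg over all tested genes (adjusted p from 0.363 to 0.985), where 2.27% of all tested genes passed (0.779% higher and 1.49% lower). At an unadjusted p under 0.05 the count was also 0 of 7, where 14.7% of all tested genes lay under it. DESeq2 and limma-voom called 0 of 7 as well. The median log2 fold change of the 7 genes was −0.016, against 0.020 for all tested genes. Its sign was not stable: it was 0.087 with library size alone, where that of all genes was 0.121, and −0.088 to 0.070 with 1 library left out. The estimates fell in 2 sets: Cnr1 (0.25), Napepld (0.42) and Mgll (−0.14) had the smallest p, and Dagla, Daglb, Abhd6 and Faah lay within 0.03 of 0 on the log2 scale.

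**Figure D1:**
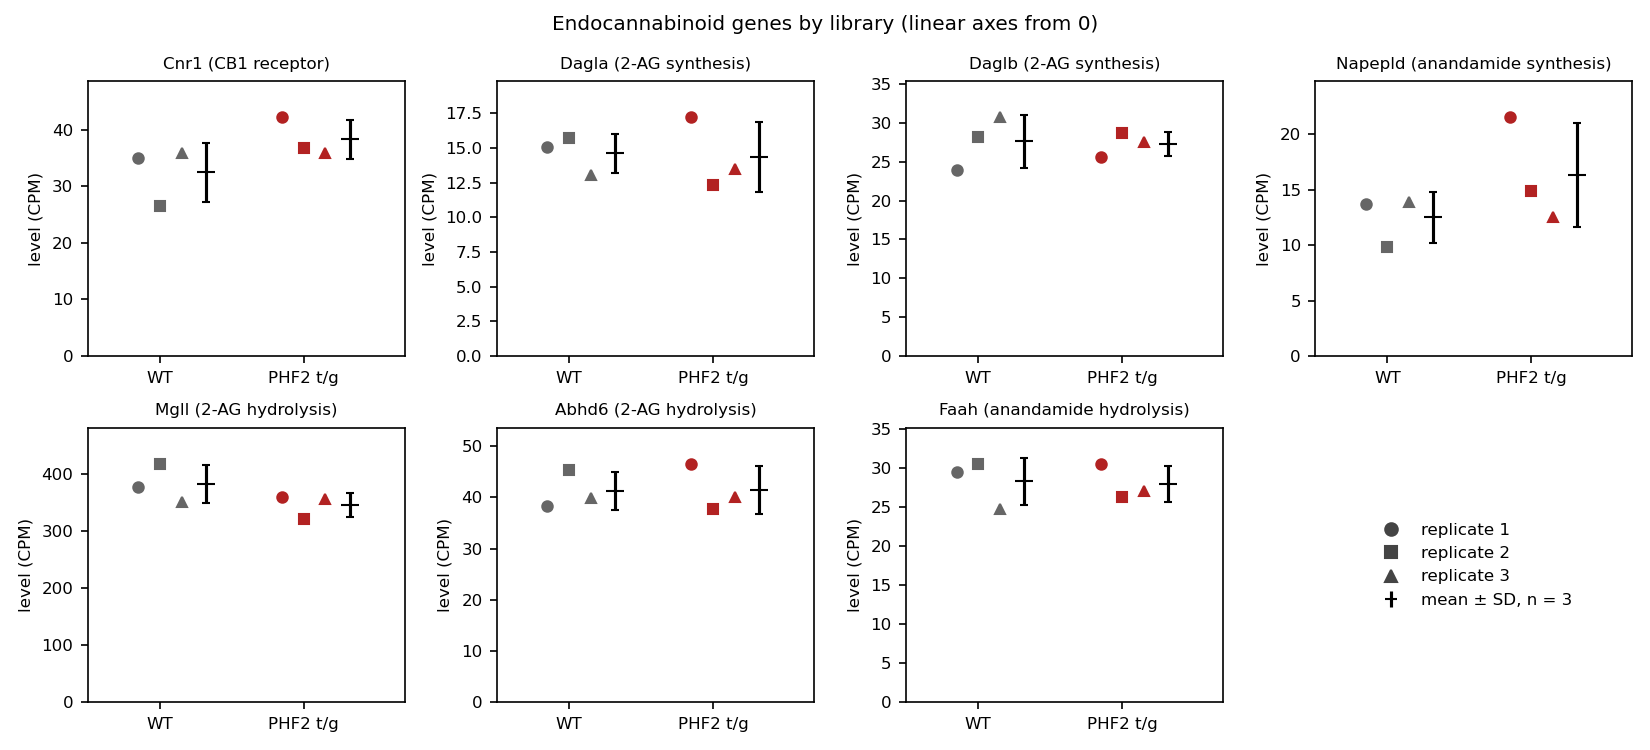
Level in CPM (y axis, linear from 0, a separate scale per gene) of the 7 genes in each library, WT in grey and PHF2 t/g in red, with symbols for the replicate number and bars for mean ± SD (n = 3). The 2 groups overlap in 6 genes, and in Cnr1 they are separated by less than the width of a symbol (35.88 against 35.86 CPM).

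The annotated promoters of the 3 genes with the smallest p are shown because PHF2 binds at promoters. Each is 300 bases of RefSeq sequence on GRCm38.p6, 250 before and 50 after an annotated start, 5′ to 3′ on the gene's own strand, with capitals marking CG dinucleotides. They lie at chr4:33924394-33924693 (Cnr1, plus strand, the start nearest to GENCODE's), chr6:88724162-88724461 (Mgll, plus strand, likewise) and chr5:21701573-21701872 (Napepld, minus strand).
Cnr1: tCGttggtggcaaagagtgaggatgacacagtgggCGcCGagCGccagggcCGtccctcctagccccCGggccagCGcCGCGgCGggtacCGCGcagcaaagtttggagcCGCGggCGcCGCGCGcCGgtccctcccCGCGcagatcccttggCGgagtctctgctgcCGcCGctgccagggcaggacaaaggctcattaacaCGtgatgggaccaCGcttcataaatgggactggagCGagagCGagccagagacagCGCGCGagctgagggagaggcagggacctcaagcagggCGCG
Mgll: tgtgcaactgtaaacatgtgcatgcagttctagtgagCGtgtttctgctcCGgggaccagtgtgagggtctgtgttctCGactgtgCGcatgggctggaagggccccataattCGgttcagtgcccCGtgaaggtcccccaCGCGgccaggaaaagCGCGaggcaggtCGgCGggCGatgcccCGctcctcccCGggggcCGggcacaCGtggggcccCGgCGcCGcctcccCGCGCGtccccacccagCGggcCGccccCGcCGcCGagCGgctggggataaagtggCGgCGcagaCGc
Napepld: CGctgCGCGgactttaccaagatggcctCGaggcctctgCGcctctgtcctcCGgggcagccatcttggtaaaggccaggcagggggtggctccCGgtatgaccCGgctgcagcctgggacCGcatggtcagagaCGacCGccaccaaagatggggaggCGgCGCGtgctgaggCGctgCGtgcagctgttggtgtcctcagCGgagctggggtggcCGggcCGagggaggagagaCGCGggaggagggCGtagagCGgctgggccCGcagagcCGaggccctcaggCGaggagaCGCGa
All 3 were rich in CG. Cnr1 held 33, Mgll 32 and Napepld 28, against a median of 7 over 32851 promoters of the same length. The promoters of Abhd6 held 24 and 26, that of Faah 16 and that of Daglb 11, so a count above this median was not particular to the 3. An outer Cnr1 start held 40 (chr4:33924014-33924313) and an inner one 5 (chr4:33926130-33926429), so the annotated starts of this gene differ in CG content; 3′ tags do not tell which start a transcript used. Among the 10 promoters of the 6 genes with an entry, the letters GCGTGGGCG, the consensus of the Egr zinc finger factors, were found on either strand in that of Faah alone, and in 0.612% of all promoters. The cAMP response element TGACGTCA was in none of the 10 and in 1.79% of all. A match, or its absence, describes these letters only.

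Cnr1 encodes CB1, the receptor through which 2-AG and anandamide act in brain. It lies on chromosome 4 (33923171 to 33948831, GRCm38, plus strand), and its coding part ends in a last exon of 5280 bases. Its level was 42.2, 36.8 and 35.9 CPM in PHF2 t/g replicates 1, 2 and 3 and 35.0, 26.4 and 35.9 CPM in WT replicates 1, 2 and 3. Groups without overlap were also found for 20.6% of all tested genes (10.1% higher in PHF2 t/g, 10.4% lower), and here the lowest PHF2 t/g library and the highest WT library differed by under 0.1 CPM, while PHF2 t/g replicate 1 was the highest of all and WT replicate 2 the lowest. The means were 38.3 ± 3.41 and 32.4 ± 5.22 CPM (SD, n = 3). The fitted log2 fold change came to 0.25 (SE 0.13; edgeR adjusted p = 0.382). Its 95% interval ran from −0.02 to 0.52, or 0.985- to 1.44-fold. It was 0.12 without WT replicate 2, 0.17 without PHF2 t/g replicate 1 and 0.04 without both (edgeR adjusted p = 0.714, 0.784 and 0.950). It was 0.28 to 0.33 without any of the other 4 libraries in turn and 0.35 with library size alone in place of TMM. Of 15 alternatives 4 had an unadjusted p under 0.05, and the adjusted p ranged from 0.164 to 0.950. As the library highest and the library lowest for Cnr1, PHF2 t/g replicate 1 and WT replicate 2 bring the estimate nearer to 0 when they are left out, by their choice alone. WT replicate 2 is the library that lay apart in multidimensional scaling, and PHF2 t/g replicate 1 the one high in Ttr. On axis 1 PHF2 t/g replicate 1 (−0.313) lay between the others of its group (−0.533 and −0.255). The part of these 2 libraries in the difference beyond these values was not tested.

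Dagla and Daglb encode the diacylglycerol lipases, which make 2-AG; DAGLα is the main form at synapses of adult brain, and DAGLβ is also known from microglia. Dagla (chromosome 19, 10245265 to 10304877) had 17.2, 12.4 and 13.5 CPM in PHF2 t/g, against 15, 15.7 and 13.0 CPM in WT. Both its highest and its lowest library were PHF2 t/g. The fitted log2 fold change came to −0.02 (SE 0.16; edgeR adjusted p = 0.974; 95% interval −0.36 to 0.33). Daglb (chromosome 5, 143464484 to 143504442) had 25.6, 28.7 and 27.5 CPM in PHF2 t/g, against 24.0, 28.2 and 30.7 CPM in WT. The WT libraries enclosed the PHF2 t/g ones. Its mean difference was −0.03 on the log2 scale (SE 0.13; edgeR adjusted p = 0.947; 95% interval −0.29 to 0.24). Daglb thus gave 65.6% ± 5.18 of the summed Dagla and Daglb counts in PHF2 t/g and 65.3% ± 4.50 in WT (SD, n = 3). This share rests on 205 to 386 counts per library, and the exact 95% binomial interval of the library with the fewest was 54.4% to 68.2%, for counting error only.

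The Daglb row is uncertain. Its last exon in GENCODE M21 (chromosome 5, 143503207 to 143505942) shares 2309 bases with an exon of Rac1 on the opposite strand, a small GTPase gene whose transcript ends inside it. Rac1 was read at 392 ± 27.1 CPM in PHF2 t/g, against 436 ± 42.4 CPM in WT, 13.2 to 17.0 times Daglb in each library. The sources used here do not say whether the authors counted by strand, so tags of the 2 genes cannot be told apart, and the Daglb level may include or lack tags because of Rac1. Among the other 6 genes, no last exon shared bases with another GENCODE gene.

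Napepld encodes the phospholipase D that releases anandamide and related N-acylethanolamines from membrane lipid. It lies on chromosome 5 (21662901 to 21701622, minus strand). Its level was 21.5, 14.9 and 12.5 CPM in PHF2 t/g, against 13.7, 9.87 and 13.9 CPM in WT. PHF2 t/g replicate 1 was the highest library and WT replicate 2 the lowest, while PHF2 t/g replicate 3 lay below WT replicates 1 and 3. The mean was 16.3 ± 4.66 CPM in PHF2 t/g, against 12.5 ± 2.28 CPM in WT (SD, n = 3). The largest log2 fold change of the 7 was that of Napepld, 0.42 (SE 0.21; edgeR adjusted p = 0.363). Its 95% interval ran from −0.02 to 0.86, or 0.987- to 1.81-fold. It was 0.15 without PHF2 t/g replicate 1, 0.27 without WT replicate 2 and −0.0052 without both (edgeR adjusted p = 0.879, 0.569 and 0.997), which are again the highest and the lowest library. It was 0.48 to 0.57 without any of the other 4 libraries in turn and 0.52 with library size alone. Of 15 alternatives 4 had an unadjusted p under 0.05, and the adjusted p ranged from 0.187 to 0.997. With 72 to 194 counts per library, counting alone gives a coefficient of variation of up to 11.8%, against an observed 28.5% in PHF2 t/g and 18.2% in WT.

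Mgll encodes monoacylglycerol lipase, the main hydrolase of 2-AG in brain, and Abhd6 a membrane hydrolase that takes a smaller part of it in the postsynaptic cell. Mgll (chromosome 6, 88724412 to 88828360, plus strand) had 359, 321 and 356 CPM in PHF2 t/g, against 377, 417 and 351 CPM in WT. WT replicate 2 was the highest library and PHF2 t/g replicate 2 the lowest, and WT replicate 3 lay below PHF2 t/g replicates 1 and 3. The means were 345 ± 21.1 and 382 ± 33.2 CPM (SD, n = 3). On the log2 scale the change was −0.14 (SE 0.08; edgeR adjusted p = 0.436). The 95% interval, −0.32 to 0.03, was the narrowest of the 7, so a fall of more than 1.25-fold or a rise of more than 1.02-fold lay outside it. Its sign was the same under all 15 alternatives, 1 of which had an unadjusted p under 0.05. The estimate was −0.07 without WT replicate 2, −0.10 without PHF2 t/g replicate 2, −0.16 to −0.21 without any of the other 4 libraries in turn and −0.04 with library size alone in place of TMM. GENCODE gives this gene 4 coding 3′ ends, which the counts sum.

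Abhd6 (chromosome 14, 8002888 to 8056773) had 46.5, 37.6 and 40.1 CPM in PHF2 t/g, against 38.3, 45.4 and 39.9 CPM in WT. The groups covered nearly the same range, with PHF2 t/g replicate 1 and WT replicate 2 both high. The estimate was 0.0064 on the log2 scale (SE 0.12; edgeR adjusted p = 0.985; 95% interval −0.24 to 0.25). Faah, which hydrolyses anandamide (chromosome 4, 115996668 to 116018837), had 30.5, 26.3 and 27 CPM in PHF2 t/g, against 29.5, 30.5 and 24.8 CPM in WT. Here too the groups overlapped over most of their range. The log2 estimate was −0.02 (SE 0.13; edgeR adjusted p = 0.969; 95% interval −0.28 to 0.25). The ratio of Faah to Napepld CPM was 1.78 ± 0.368 in PHF2 t/g and 2.34 ± 0.677 in WT (SD, n = 3), and its ranges overlapped (1.42 to 2.15 and 1.78 to 3.10).

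**Figure D2:**
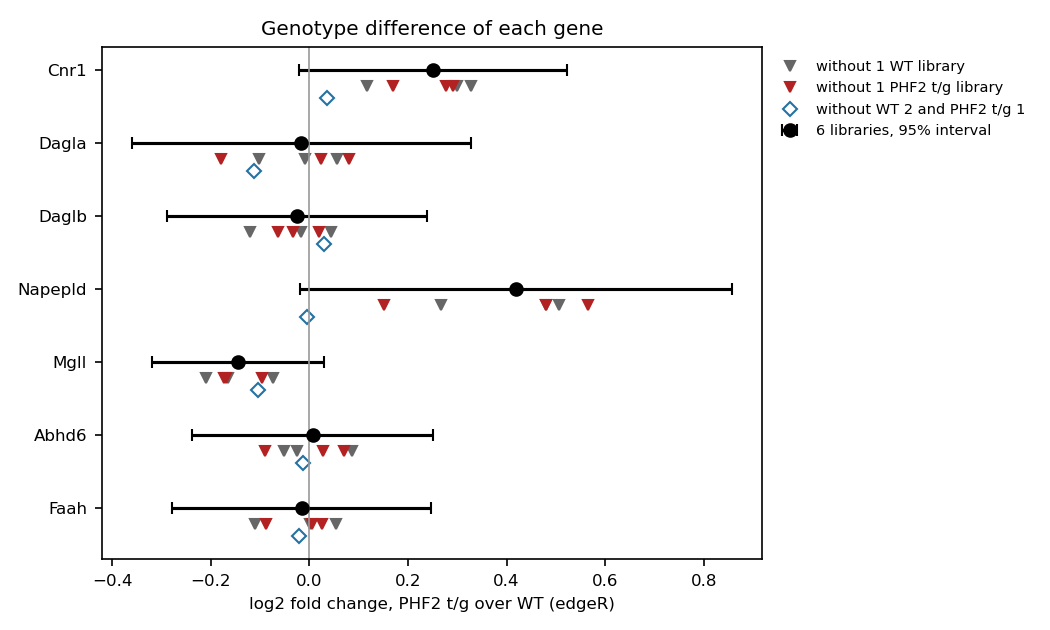
Log2 fold change of PHF2 t/g over WT (x axis, edgeR) for each gene, with the 95% interval from 6 libraries in black, the estimates with 1 WT library (grey) or 1 PHF2 t/g library (red) left out, and the estimate with PHF2 t/g replicate 1 and WT replicate 2 both left out as blue diamonds. Every 95% interval includes 0. For Cnr1 and Napepld the diamonds leave out the highest and the lowest library, which by itself moves them towards 0.

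The 7 transcripts spanned a wide range of levels. Mgll, at a mean of 364 CPM over the 6 libraries, ranked above 97.0% of tested genes and was higher than any other of the 7 in every library. Abhd6 (41.3 CPM) exceeded Cnr1 (35.4) in all 6 libraries, and Cnr1 exceeded Faah (28.1) in 5, although across libraries the ranges of these neighbours overlapped. Faah and Daglb (27.5) did not differ beyond their spread, each being higher in 3 libraries. Both were above Dagla (14.5) and Napepld (14.4), near the 42nd percentile, in all 6 libraries, and this last pair again split the libraries 3 to 3. Mgll counted 24.4 ± 3.09 tags per Dagla tag in PHF2 t/g and 26.2 ± 1.0 in WT (SD, n = 3).

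The shares of the 2-AG hydrolase genes in their summed counts were compared after their values were seen. Abhd12, a hydrolase best known for lysophosphatidylserine, was added as the third 2-AG hydrolase. Mgll made up 71.3%, 70.3% and 70.4% of the 3 genes' counts in PHF2 t/g and 74.4%, 74.2% and 73.0% in WT, so that the groups did not overlap. The means were 70.6% ± 0.542 and 73.9% ± 0.716 (SD, n = 3), and exact 95% binomial intervals, for counting error only, were 69.9% to 72.6% in PHF2 t/g replicate 1, the highest of its group, and 71.5% to 74.6% in WT replicate 3, the lowest of its group, so these 2 intervals overlapped. Abhd12 took 20.9% ± 1.22 in PHF2 t/g and 18.2% ± 0.454 in WT, and Abhd6 8.46% ± 0.694 and 7.97% ± 0.388. Neither Mgll nor Abhd12 passed the test as a gene (Abhd12 at 102 ± 6.75 CPM in PHF2 t/g, against 93.8 ± 5.37 in WT; edgeR adjusted p = 0.580). The shares are a description without a test.

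**Figure D3:**
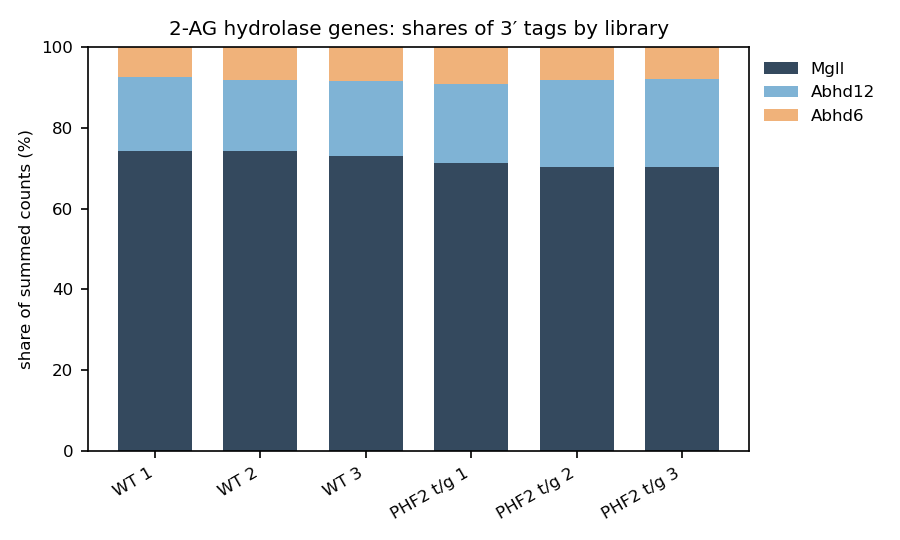
Share in percent (y axis) of Mgll, Abhd12 and Abhd6 in their summed counts in each library (x axis). Mgll takes 70.3% to 71.3% in the PHF2 t/g libraries and 73.0% to 74.4% in the WT libraries. Without Abhd12, the ratios of Mgll to Abhd6 overlapped between the groups.

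Among the libraries, PHF2 t/g replicate 1 was the highest for 4 of the 7 genes, and WT replicate 2 the highest for 2 and the lowest for Cnr1 and Napepld. Cnr1 and Napepld followed each other across libraries more closely (root mean square difference of centred log2 CPM 0.166) than either followed the other 5 genes (0.246 to 0.402). Dagla, Mgll, Faah and Abhd6 formed a tighter set, with pairwise differences of 0.076 to 0.125. Over 6 libraries and 7187 genes at a mean log2 CPM of at least 4, the nearest genes to Cnr1 by this measure were Wasl and Igbp1 (0.033 and 0.035), which encode an activator of actin assembly and a phosphatase regulator. Those nearest to Mgll were Sec11a and Map2k2 (both 0.019), to Napepld Ociad2 and Kbtbd2 (0.101 and 0.108), to Dagla Rnft2 and Csnk1d (0.048 and 0.056), to Daglb Map1s and Zfp655 (0.031 and 0.034), to Faah Amph and Cnot1 (0.024 and 0.026) and to Abhd6 Mapk8ip2 and C1qc (0.025 and 0.026). Napepld had no gene as close as the other 6 genes had. It also varied most of the 7 within each group (coefficient of variation 28.5% in PHF2 t/g and 18.2% in WT). This measure counts the size of a spread as well as its pattern. The differences describe 6 libraries searched against all genes at that level.

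Of 21 other genes of the endocannabinoid system, 14 passed the low-count filter and none passed the edgeR test, against 2.27% of all tested genes. At an unadjusted p under 0.05 by edgeR there was 1, against 14.7% of all tested genes. DESeq2 and limma-voom called 0. The median log2 fold change of the 14 was −0.09 after TMM scaling and 0.01 by library size alone, where the median of all genes moved from 0.020 to 0.121. Fabp3, one of the fatty acid binding proteins that can carry anandamide in the cell, had the smallest p. It had 103, 104 and 121 CPM in PHF2 t/g, against 125, 143 and 125 CPM in WT, with a log2 fold change of −0.27 (SE 0.09; edgeR adjusted p = 0.153). Its groups did not overlap, which held for 1 of the 14 genes and for 20.6% of all tested genes. Ppara, a nuclear receptor for N-acylethanolamines, was at 4.34 ± 1.04 CPM in PHF2 t/g, against 2.82 ± 0.902 CPM in WT (edgeR adjusted p = 0.360). The CB1-binding proteins Cnrip1 (59.2 ± 1.13 and 60.9 ± 7.99 CPM) and Sgip1 (49.0 ± 2.91 and 53.8 ± 8.34 CPM) overlapped between the groups. Of the 7 genes below the filter, the CB2 receptor gene Cnr2 had 2 counts in PHF2 t/g and 5 in WT, each summed over 3 libraries, Gpr55 had 0 and 5, Gpr18 3 and 3, and Trpv1 and Gpr119 had 0 in all 6. At this depth a difference in these genes was not detectable.

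Of 16 genes that set the supply of diacylglycerol for 2-AG, 1 fell, none rose and 15 did not pass (lower at an adjusted p under 0.05: 1.49% of all tested genes). The gene that fell was Dgkz, encoding diacylglycerol kinase zeta, which turns diacylglycerol into phosphatidic acid. Its level was 609, 668 and 748 CPM in PHF2 t/g, against 871, 894 and 792 CPM in WT. All PHF2 t/g libraries lay below all WT libraries, as was so for 10.4% of all tested genes. The fitted log2 fold change came to −0.34 (SE 0.09; edgeR adjusted p = 0.0454), or 1.26-fold lower. It no longer passed with any of PHF2 t/g replicate 1 (edgeR adjusted p = 0.324), PHF2 t/g replicate 2 (0.200) or WT replicate 1 (0.0875) left out. Nor did it pass without both PHF2 t/g replicate 1 and WT replicate 2 (0.215) or with library size alone (0.134). The same held with limma-voom (0.0737) and without the robust fit (0.0889). The log2 fold change in these 7 fits was −0.23 to −0.34, and over all 15 alternatives −0.23 to −0.42. Homer2, a scaffold of group I glutamate receptors, was at 185 ± 19.0 CPM in PHF2 t/g, against 221 ± 19.4 CPM in WT (edgeR adjusted p = 0.164). Grm5, the receptor gene mGluR5, was at 287 ± 17.8 and 243 ± 46.1 CPM, and Plcb1, a phospholipase C that supplies diacylglycerol, was within 0.01 of 0 on the log2 scale. The median of the list was −0.05 after TMM scaling and 0.05 by library size alone.

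Of 23 effectors and regulators of CB1 signalling, none passed over all genes by edgeR, DESeq2 or limma-voom (4 at an unadjusted p under 0.05 by edgeR), where 2.27% of all tested genes passed and 14.7% had an unadjusted p under 0.05. Rgs4, which speeds the turn-off of Gi and Gq proteins, was at 365 ± 25.8 CPM in PHF2 t/g, against 435 ± 18.6 CPM in WT (log2 fold change −0.25; edgeR adjusted p = 0.105). Gnb1, a G protein beta subunit, was at 1007 ± 27.7 and 1173 ± 72.4 CPM (−0.22; edgeR adjusted p = 0.151). For both genes the groups did not overlap, as was so for 4 of the 23 genes and for 20.6% of all tested genes. Without WT replicate 2 another beta subunit gene, Gnb2, was called lower (log2 fold change −0.26; edgeR adjusted p = 0.0422); it was named after its value was seen. The median of the list was −0.07 after TMM scaling and 0.03 by library size alone.

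Of 16 enzymes of arachidonate and eicosanoid metabolism, into which 2-AG hydrolysis feeds, 10 were tested. None passed by edgeR or limma-voom, where 2.27% of all tested genes passed by edgeR. By edgeR 1 had an unadjusted p under 0.05, against 14.7% of all tested genes, and DESeq2 called 1. That gene was Ptgds, prostaglandin D synthase, an abundant transcript of leptomeninges and oligodendrocytes. It had 291, 231 and 296 CPM in PHF2 t/g, against 225, 161 and 181 CPM in WT, with a log2 fold change of 0.53 (SE 0.14; edgeR adjusted p = 0.0917; DESeq2 adjusted p = 0.0040). The groups did not overlap, as was so for 3 of the 10 tested enzymes and for 20.6% of all tested genes. PHF2 t/g replicate 2 and WT replicate 1 lay close together. Alox5ap was at 5.39 ± 0.544 and 4.31 ± 0.695 CPM (edgeR adjusted p = 0.587). In the same libraries the summed level of 12 leptomeningeal and vessel markers was 256 to 275 CPM in PHF2 t/g, against 155 to 195 CPM in WT. Of 11 tested members 4 rose, where 0.779% of all tested genes did. They were Mgp and the vessel genes Flt1, Ly6c1 and Vwf. Mgp, an inhibitor of calcification, made up most of the gap between the sums, at 112 ± 7.26 CPM in PHF2 t/g, against 43.6 ± 8.05 CPM in WT. Of the other members, 3 were lower in PHF2 t/g without passing: Cldn5, a tight junction gene of brain endothelium (11.7 ± 0.926 CPM, against 17.9 ± 3.87; edgeR adjusted p = 0.0791), Dcn (18.7 ± 4.72 CPM, against 24.0 ± 3.68) and Acta2 (7.10 ± 0.647 CPM, against 8.37 ± 1.33). The part of these cells in the Ptgds value was not tested. The median of the list was 0.09, and 0.20 by library size alone. It was −0.01 without PHF2 t/g replicate 1, 0.01 without WT replicate 2 and 0.18 without PHF2 t/g replicate 3, so its sign depended on 1 library.

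**Figure D4:**
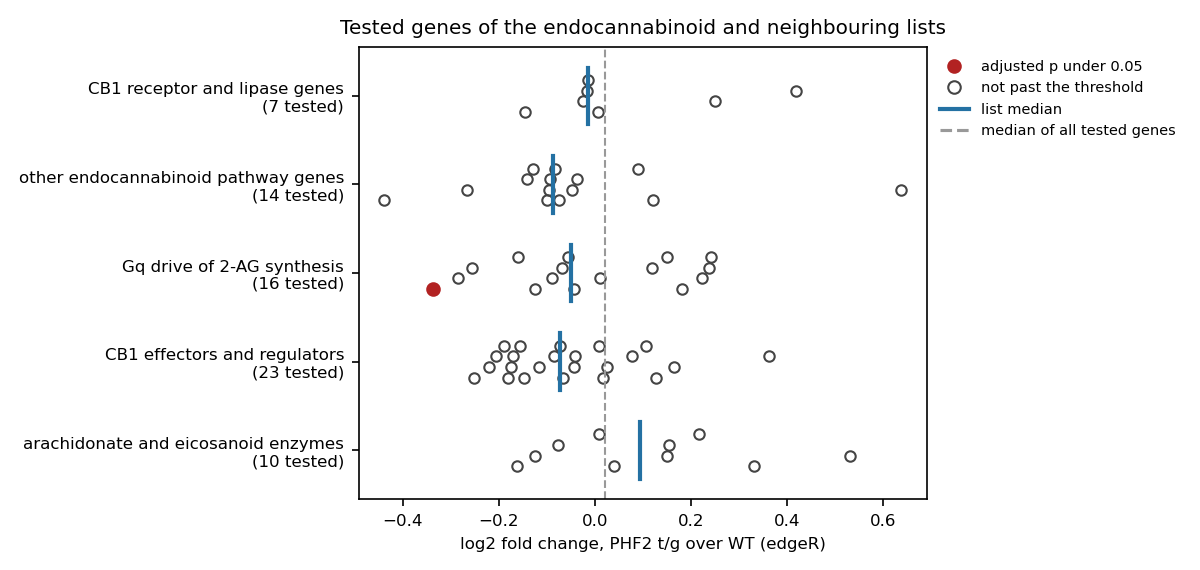
Log2 fold change of PHF2 t/g over WT (x axis, edgeR) of each tested gene in the 5 lists (rows); filled red points passed an adjusted p of 0.05, blue lines are list medians and the dashed line is the median of all tested genes (0.020). The 1 filled point is Dgkz at −0.34, and the 7 receptor and lipase genes (top row) are open.

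In bulk tissue, fewer cells of a type and less RNA per cell cannot be told apart, and CB1 and its enzymes differ in level between cell types and regions. Among 12 markers of cholecystokinin interneurons, which carry much CB1, the summed level was 1176 to 1193 CPM in PHF2 t/g, against 1164 to 1191 CPM in WT. Most of this sum came from Slc32a1 (571 ± 27.4 and 584 ± 19.3 CPM) and Cck, which are not limited to these cells. The sum therefore does not give the level of these interneurons alone. Of 11 tested members 1 rose, where 0.779% of all tested genes did. It was Gad2, a GABA-synthesising enzyme (82.9 ± 2.90 against 57.7 ± 3.51 CPM; edgeR adjusted p = 0.00493). The other 10 did not pass, among them Cck itself at 284 ± 14.3 and 302 ± 11.7 CPM. At an unadjusted p under 0.05 by edgeR there were 3 of the 11, where 14.7% of all tested genes lay under it. By fold change 7 of the 11 were higher in PHF2 t/g and 4 lower. Striatal projection neurons also express Cnr1. Of their markers 4 of 8 tested rose, the neuropeptide precursor genes Pdyn, Tac1 and Penk and the signalling regulator gene Rgs9 (0.779% of all tested genes were called higher). The adenosine receptor gene Adora2a had the opposite sign, at 77.8 ± 10.6 CPM in PHF2 t/g, against 97.1 ± 13.5 CPM in WT (log2 fold change −0.33; edgeR adjusted p = 0.169). The summed level of 10 such markers was 834 to 953 CPM in PHF2 t/g, against 630 to 725 CPM in WT, while the receptor gene Drd2 had 1 and 3 counts over the groups. Summed astrocyte (4003 to 4256 and 4027 to 4232 CPM), microglia (325 to 345 and 331 to 397 CPM) and oligodendrocyte markers (2431 to 2465 and 2209 to 2483 CPM) overlapped between the groups. In the astrocyte and microglia lists, 0 of 10 and 0 of 10 members passed by edgeR, where 2.27% of all tested genes passed. At an unadjusted p under 0.05 these lists had 4 and 3 members, where 14.7% of all tested genes lay under it. Of 9 oligodendrocyte genes 2 fell, Opalin and Mag, where 1.49% of all tested genes did. Of 12 excitatory neuron markers 1 rose, Wfs1, and none fell, where 0.779% of all tested genes were called higher and 1.49% lower. Choroid plexus markers summed to 331 CPM in PHF2 t/g replicate 1, the library highest for Cnr1 and Napepld, and to 7.87 to 14.6 CPM in the others. No marker list had a member at 0 in all 6 libraries. The part of these cell types in the values of the 7 genes was not tested.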

How the data were processed

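Per the labels' protocols, RNA was taken with Trizol and made into QuantSeq 3′ end libraries. Each deposited file holds the raw counts of 1 library by gene symbol, which the authors did not normalize; 44 of 23282 rows repeat a symbol and were kept apart. The submitters' processing notes name Bowtie2, edgeR and mm10; the sources used here do not give versions, counter, annotation or strand setting. Groups come from sample titles.

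Genes kept by filterByExpr were scaled by TMM and tested with edgeR 4.0.16 in R 4.3.3 (robust quasi-likelihood, a single genotype term). P-values were adjusted by Benjamini-Hochberg across the 12831 genes, and 0.05 was the threshold. SE is the log2 fold change over the root of F. Alternatives used DESeq2 1.42.0, limma 3.58.1 (voom), other scalings and filters, no robust fit, a replicate block, and libraries left out; leaving out 2 at once was chosen after seeing the data. The procedure was tested on simulated data.

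The 7 genes and all lists were chosen with earlier results of these data known. Named genes are the 7; in each pathway list up to 4 past the threshold, or the 2 with the smallest p; and the 2 nearest to each of the 7 (log2 CPM, prior count 2). Others were chosen after their values were seen. Marker lists are those of cholecystokinin interneurons, hippocampal excitatory neurons, astrocytes, microglia, oligodendrocytes, striatum, choroid plexus, and leptomeninges with vessels. Coordinates are RefSeq's on GRCm38.p6, exons GENCODE M21's. All pairs of libraries differed by more than sampling noise (chi-square per gene 2.95 or more). Intervals from counts cover counting error only.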

Additional observations from a re-analysis of the deposited data

How the results depend on the processing

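None of the 7 receptor and lipase genes, and none of the 14 other endocannabinoid genes, passed under any alternative run. Directions of estimates near 0 turned. With library size alone Dagla was 0.087, Daglb 0.074 and Faah 0.087 on the log2 scale. The median of all tested genes moved from 0.020 to 0.121 in that setting, so this shift was not particular to these genes. Abhd6 was −0.0013 with DESeq2's size factors, −0.0043 with DESeq2 and −0.012 with PHF2 t/g replicate 1 and WT replicate 2 both left out, where Daglb was 0.030 and Napepld −0.0052. With 1 library left out, Dagla ranged from −0.18 to 0.081, Daglb from −0.12 to 0.045, Faah from −0.11 to 0.054 and Abhd6 from −0.090 to 0.087. The cause was not tested. Over all genes 291 were called (34.4% higher; 74.7% with library size alone), 162 by limma-voom, 606 without the low-count filter, 149 without the robust fit, 140 without both libraries named above, and 49 to 392 with 1 left out, the fewest without PHF2 t/g replicate 1 (49), 2 (106) or 3 (116). In the diacylglycerol supply list the count of 1 became 0 with library size alone, limma-voom, the fit that was not robust and without both libraries, and 0 to 1 with 1 left out. In the eicosanoid list the count of 0 became 1 (Ptgds) with library size alone, DESeq2, no low-count filter and the replicate block, and 0 to 1 with 1 left out; in the CB1 effector list it was 0 to 1. Whether replicate numbers pair the samples was not settled. Same-numbered libraries correlated in their deviations at −0.0044, 0.123 and 0.0846 for replicates 1, 2 and 3. PHF2 t/g replicates 2 and 3 correlated best with the WT library of their own number, and PHF2 t/g replicate 1 did not. With the replicate block 299 genes were called, Cnr1 was 0.25, Napepld 0.38 and Mgll −0.14, and of the 7 genes 0 passed. Of the genes nearest to each of the 7, those of Faah shared 1 of 2 with library size alone, and the others stayed the same under both alternatives. At 72 to 194 counts per library (Napepld) and 79 to 155 (Dagla), 95% intervals reached 1.81-fold and 1.28-fold. These are bounds around the estimates and not the smallest differences that could have passed the threshold.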
